A study of Mus musculus with 5 samples.

Results

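The genes described here are those whose symbols mark them as mitochondrial ribosomal proteins: Mrpl or Mrps, a number and at most 1 further letter. The features tables listed 78 such genes among 31053, and all 78 had UMIs (unique molecular identifiers, each standing for 1 captured transcript molecule) in every library. The family was chosen by measured values, because Mrps24 had already been seen to be low in the disease libraries of these data. The disease against control contrast therefore sorts the members as a description, and no p-value is given for any member in it.

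Mitochondrial ribosomes translate the few mRNAs encoded by mitochondrial DNA, all of which specify core subunits of the oxidative phosphorylation complexes. Their proteins are encoded in the nucleus, made in the cytosol and imported, and heart tissue depends heavily on this system. Some have bacterial counterparts and others are specific to mitochondria. Symbols do not always give the place in the ribosome: Mrps30 and Mrps18a sit in the large subunit, and Mrps36 is known as a component of the oxoglutarate dehydrogenase complex. In the other direction, subunits such as Dap3, Ptcd3 and Gadd45gip1 carry other symbols and are given as a list of their own.

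Hearts came from control mice (Ctla4+/+Pdcd1-/-, 4 mice) and from mice with immune checkpoint inhibitor myocarditis (Ctla4+/-Pdcd1-/-, 10 mice), so the controls also lacked Pdcd1 and the contrast is the loss of 1 copy of Ctla4. Hearts were digested and pooled, nucleated live cells (DRAQ5+DAPI-) were sorted, and 5-prime single-cell libraries were made: control replicates 1 and 2, and disease replicates 3, 4 and 5. Age, the mice in each library and the days of preparation are not given in the labels. The genotype labels of single samples print Pdcd1, Pdcd2 or Pdcd3 and the dye as DRAQ5 to DRAQ9, while the study design gives Pdcd1-/- and DRAQ5 for all. Libraries were made from pools of mice that are not named, so the spread between them may be of mice, library preparation or both.

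The libraries held 24991704 to 55053988 UMIs, and 5338 to 9158 cells per library were kept, 35838 in all. Kept cells had median depths of 3317 to 4479 UMIs. Pairs of libraries shared 86 to 161 barcodes, 1.33 to 1.90% of the smaller library. Transcripts of Ctla4 and Pdcd1 were counted in the T cells of all 5 libraries, and the part of either gene that was deleted is not given, so 5-prime counts do not check the genotypes. Disease replicate 4 stood apart. T cells were 25.3% of its kept cells against 1.65 to 7.93% in the other 4 libraries, and 4.71% of all 16028 genes tested were lower there by over 2 times than in any other library, against 0.362 to 1.48% for the others. Without that library, 11 members in place of 12 were called lower over all cells, with Mrps6 lost.

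The annotated starts of 6 members are printed, since 5-prime libraries are made to read that end. Where the reads of these libraries begin was not measured. Mrps24, Mrpl57 and Mrps26 were low in all disease libraries, Mrpl52 was low in disease replicate 4, and Mrpl33 and Mrps21 are abundant members that were low in no disease library. Each line runs 5′ to 3′ on the gene's strand from 100 bases before to 30 bases after the start of the gene (RefSeq, GRCm38.p6). Capitals mark matches, on either strand, to CCGGAA, the core bound by ETS factors such as GABP, or to the NRF-1 type element (GCGCA, any base, GCGC). Both factors are known regulators of nuclear genes for mitochondrial proteins.
Mrps24, chr11:5707672-5707801, minus strand: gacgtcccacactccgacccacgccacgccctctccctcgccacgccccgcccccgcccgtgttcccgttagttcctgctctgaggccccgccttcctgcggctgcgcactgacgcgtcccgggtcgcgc
Mrpl57, chr14:57826139-57826268, plus strand: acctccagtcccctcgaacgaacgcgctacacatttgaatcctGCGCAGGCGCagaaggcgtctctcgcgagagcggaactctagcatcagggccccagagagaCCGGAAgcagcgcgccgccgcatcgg
Mrps26, chr2:130563657-130563786, plus strand: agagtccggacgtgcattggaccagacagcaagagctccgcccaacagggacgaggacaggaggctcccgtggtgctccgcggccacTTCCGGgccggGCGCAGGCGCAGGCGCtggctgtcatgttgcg
Mrpl52, chr14:54426809-54426938, plus strand: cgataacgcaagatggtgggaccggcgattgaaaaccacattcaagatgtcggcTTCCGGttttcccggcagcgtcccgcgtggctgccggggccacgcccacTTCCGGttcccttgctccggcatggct
Mrpl33, chr5:31613851-31613980, plus strand: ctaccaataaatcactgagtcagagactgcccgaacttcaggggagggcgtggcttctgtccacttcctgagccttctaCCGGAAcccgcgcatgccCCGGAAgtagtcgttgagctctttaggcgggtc
Mrps21, chr3:95871485-95871614, minus strand: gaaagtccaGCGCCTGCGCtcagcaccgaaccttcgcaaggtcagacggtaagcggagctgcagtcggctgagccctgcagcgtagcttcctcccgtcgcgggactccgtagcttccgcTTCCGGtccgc

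RefSeq promoters (250 bases before to 50 after the start) were matched for 69 members. CCGGAA was found in 56.5% of them and in 15.2% of the 27025 promoters of the table, and the NRF-1 type element in 18.8 and 4.78%. The Mrps24 window held neither. CCGGAA was present in 6 of the 9 matched members that were low in all disease libraries, in 9 of 10 that were low in disease replicate 4, and in 24 of the other 50. A match describes the sequence and not its use.

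With UMIs summed over all cells, 12 of the 78 members (15.4%) were called lower in disease, that is, at an adjusted p under 0.05. Of all 16028 genes tested, 6.47% were. In such sums, a change in the cells present and a change in RNA per cell cannot be told apart. No member passed in the other direction (0 members, against 0.0374% of genes). The test was edgeR's quasi-likelihood test with Benjamini-Hochberg adjustment over all genes, and 15 members had an unadjusted p under 0.05. The count was 6 and 7 without control replicates 1 or 2 and 4 without disease replicate 5, and the share of all genes called lower fell with it, to 2.03, 1.34 and 0.782%. In DESeq2 1 member, Mrpl24, passed as higher. Most members did not share the low level of Mrps24: the median log2 fold change of the 78 was 0.12, against 0.03 over all genes, with 31 members below 0 and 47 above. Under plain library totals in place of TMM scaling, 33 members were below 0. With 1 library left out, 26 (without disease replicate 4) to 36 (without disease replicate 3) were, and the median was 0.06 without control replicate 2, against 0.03 over all genes. All disease libraries were below both controls for 15 members (21.7% of all genes) and above both for 35 (16.4%).

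Mrps24 encodes the counterpart of a bacterial protein of the small subunit head, near where mRNA enters. In counts scaled to a common library size (CPM, with edgeR's TMM scaling), control replicates 1 and 2 had levels of 113 and 121, and disease replicates 3, 4 and 5 had 4.81, 4.65 and 5.46. Raw UMIs in the same order were 5176, 2811, 125, 182 and 185. The groups were far apart, and within each group the libraries lay close together. Its log2 fold change was -4.56 (SE 0.155), the lowest of the family.

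**Figure D1:**
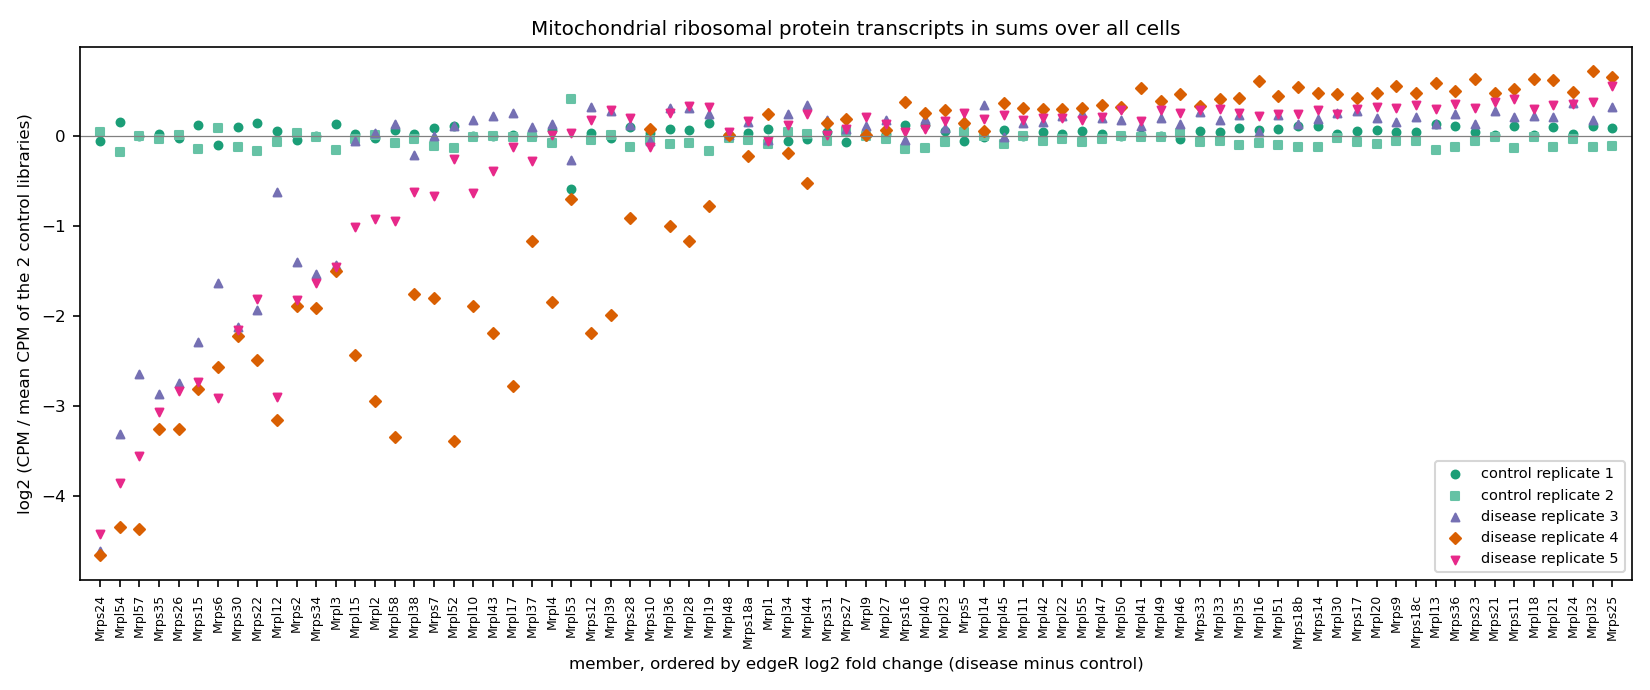
Each member's level in sums over all cells, as the log2 ratio of its CPM to the mean of the 2 control libraries, by library, with members ordered by edgeR log2 fold change. At the left 12 members and Mrpl12 sit below the controls in the disease libraries, Mrps24 lowest at -4.56, and a middle block drops furthest in disease replicate 4, part of it also in disease replicate 5, while most members stay near 0 or slightly above.

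Among small subunit proteins with bacterial counterparts, 4 of 17 were called lower, Mrps24, Mrps15, Mrps6 and Mrps2. Mrps15 was at 61.5 and 51.0 CPM in control cells, against 11.6, 8.02 and 8.50 CPM in disease replicates 3, 4 and 5 (log2 fold change -2.59, SE 0.218). Mrps6 was at 92.3 and 105 CPM in control cells, against 31.9, 16.7 and 13.1 CPM in disease cells, so that disease replicate 3 lay highest within its group (log2 fold change -2.26, SE 0.403). Mrps2 was at 10.4 and 11 CPM against 4.08, 2.91 and 3.04 CPM (log2 fold change -1.68, SE 0.217). The call of Mrps6 was lost without any 1 of control replicates 1 and 2 and disease replicates 4 and 5, and under plain library totals, while its log2 fold change stayed between -2.35 and -2.02 in these fits.

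Of the 9 small subunit proteins specific to mitochondria, 4 were called lower. Mrps35 was at 28.8 and 27.8 CPM in control cells, against 3.89, 2.96 and 3.39 CPM in disease cells (log2 fold change -3.05, SE 0.169). Mrps26 stood at 45.5 and 46.6 CPM against 6.89, 4.85 and 6.46 CPM (log2 fold change -2.92, SE 0.194). Both had disease libraries far under both controls. Mrps22 was at 13.3 and 10.7 CPM and at 3.16, 2.14 and 3.42 CPM (log2 fold change -2.05, SE 0.264). Mrps34, whose loss is known to destabilise the small subunit, was at 41.8 and 41.5 CPM and at 14.4, 11.2 and 13.5 CPM (log2 fold change -1.68, SE 0.160).

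In the large subunit, 1 of 30 proteins with bacterial counterparts and 3 of 21 specific to mitochondria were called lower. Mrpl54 was at 65.1 and 51.8 CPM in control cells, against 5.89, 2.88 and 4.04 CPM in disease cells (log2 fold change -3.78, SE 0.335). Mrpl57 was at 61.4 and 61.3 CPM against 9.85, 2.99 and 5.22 CPM (log2 fold change -3.36, SE 0.501). Both were lowest in disease replicate 4. Mrps30, a large subunit protein despite its symbol, was at 25.8 and 22.1 CPM against 5.50, 5.13 and 5.37 CPM (log2 fold change -2.17, SE 0.144). Mrpl3, which in bacteria helps shape the peptidyl transferase centre, was at 35.2 and 28.9 CPM against 11.9, 11.4 and 11.7 CPM (log2 fold change -1.46, SE 0.146). Mrpl3 was the called member nearest to 0. Over all cells without disease replicate 5, the calls of Mrpl54, Mrpl57, Mrpl3, Mrps15, Mrps6, Mrps2, Mrps22 and Mrps34 were lost. In that fit 0.782% of all genes were called lower.

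Members that did not pass included 3 whose disease libraries all lay below the controls. Mrpl12, the stalk protein that carries translation factors to the ribosome, was at 63.8 and 59.0 CPM in control cells, against 40.2, 6.92 and 8.23 CPM in disease cells. Disease replicate 3 lay closer to the controls than to the other disease libraries, and the log2 fold change of -1.74 had an SE of 0.815. Mrpl15 and Mrpl38 were the others. The groups called small subunit head (2 of 8 called), stalk (0 of 3), central protuberance (0 of 8) and polypeptide exit tunnel (0 of 6) had median log2 fold changes of 0.04, -0.55, 0.16 and 0.23.

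A further set of 13 members was lowest in disease replicate 4 by a wide margin. The rule for it was set after the values were seen: the lowest of the other 4 libraries was over 2 times as high, and the member was not called lower. They were Mrpl52, Mrpl58, Mrpl2, Mrpl17, Mrpl15, Mrps12, Mrpl43, Mrpl39, Mrpl10, Mrpl4, Mrps7, Mrpl38 and Mrpl28. No member was under this limit in any other library over all cells, and the share of all genes was 4.71% in disease replicate 4. Mrpl52, a large subunit protein specific to mitochondria, was at 192 and 162 CPM in control cells, 192 in disease replicate 3, 16.9 in disease replicate 4 and 148 in disease replicate 5. Mrpl17, a protein at the exit tunnel, was at 114 and 112 CPM, then 135, 16.4 and 104 CPM. Mrps12, a decoding site protein, was at 49.4 and 47.0 CPM, then 60.3, 10.6 and 54.6 CPM.

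In part of the set, disease replicate 5 was low as well: it stood at 49.7% of the control mean for Mrpl15, 52.2% for Mrpl58, 52.8% for Mrpl2, 63.0% for Mrps7, 64.7% for Mrpl10 and 65.3% for Mrpl38. Mrpl58, the peptidyl-tRNA hydrolase that rescues stalled ribosomes, was at 49.2 and 44.8 CPM in control cells, 51.8 in disease replicate 3, 4.65 in disease replicate 4 and 24.5 in disease replicate 5. Mrpl2 was at 40.8 and 41.5 CPM, then 42.3, 5.36 and 21.7 CPM. Disease replicate 3 was within the range of the controls or slightly above them for both. The member nearest inside the limit was Mrpl28 (50.2 and 45.5 CPM, then 59.4, 21.3 and 60.4), and Mrpl36 lay just outside (53.2 and 47.7 CPM, then 62.9, 25.3 and 60.3).

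Most of the remaining 53 members sat at or a little above the control level. The 4 with the highest log2 fold changes among members at a mean of at least 5 log2 CPM were Mrps25 (0.52, SE 0.168), Mrpl32 (0.45, SE 0.212), Mrpl24 (0.41, SE 0.138) and Mrpl21 (0.41, SE 0.187), and none passed. Mrpl32 was at 0.28 without control replicate 2 and 0.26 without disease replicate 4, and Mrpl21 at 0.24 and 0.26. Mrps25, a small subunit protein, was at 27.8 and 24.2 CPM in control cells, against 32.6, 41.2 and 38.4 CPM in disease cells. Mrpl24 was at 75.2 and 72.2 CPM and at 95, 104 and 94.8 CPM. Both had all disease libraries above both controls. Mrpl32 was at 44.4 and 37.8 CPM against 46.7, 67.9 and 53.6 CPM, and Mrpl21 at 52.3 and 44.7 CPM against 56.2, 74.7 and 61.7 CPM, again with no overlap.

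Among the most abundant members, Mrpl33 was at 179 and 166 CPM in control cells, against 196, 231 and 213 CPM in disease cells. Mrps21 was at 151 and 148 CPM against 182, 209 and 195 CPM. Mrpl23, a protein at the exit tunnel, was at 135 and 125 CPM against 139, 159 and 146 CPM. UMIs in 5-prime libraries count molecules by one end, so levels of different genes are not scaled by length. Mrps36 was at 69.3 and 59.1 CPM against 76.0, 91.2 and 82.5 CPM, and so did not share the level of Mrps24.

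The family as a whole took 0.418 and 0.412% of all UMIs in control replicates 1 and 2, then 0.424, 0.319 and 0.398% in disease replicates 3, 4 and 5. Disease replicate 4 was the low one and the other disease libraries stood near the controls. Members named Mrps took 0.150 and 0.149% in control and 0.133, 0.115 and 0.132% in disease libraries. That sum holds Mrps24, at 112 and 126 CPM of plain library totals in control cells and at 5.03, 4.19 and 5.58 in disease cells, so the gap between the groups is in part that of Mrps24. Without Mrps24 the family took 0.406 and 0.400% in controls and 0.423, 0.319 and 0.397% in disease, and the groups overlapped. Members named Mrpl took 0.268 and 0.263%, then 0.291, 0.204 and 0.266%, and the groups overlapped.

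Within lineages gated by marker genes, Mrps24 was low in every disease library. In endothelial cells it was at 160 and 166 CPM in control cells, against 4.65, 6.08 and 7.68 CPM in disease cells, and in fibroblasts at 113 and 114 CPM against 4.67, 4.79 and 4.84 CPM. In T cells it was at 90.3 and 73.2 CPM against 4.19, 3.12 and 4.25 CPM. In these 3 lineages each disease library lay far below both controls. Macrophages had 79.7 and 68.0 CPM against 6.88, 4.21 and 3.72 CPM, and B cells 73.1 and 77.1 CPM against 5.35, 1.00 and 3.95 CPM. The log2 fold changes were -4.72, -4.57, -4.50, -3.95 and -4.68 in that order of lineages, with SEs of 0.205, 0.102, 0.326, 0.274 and 0.479. The groups overlapped in none of the 5 lineages.

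**Figure D2:**
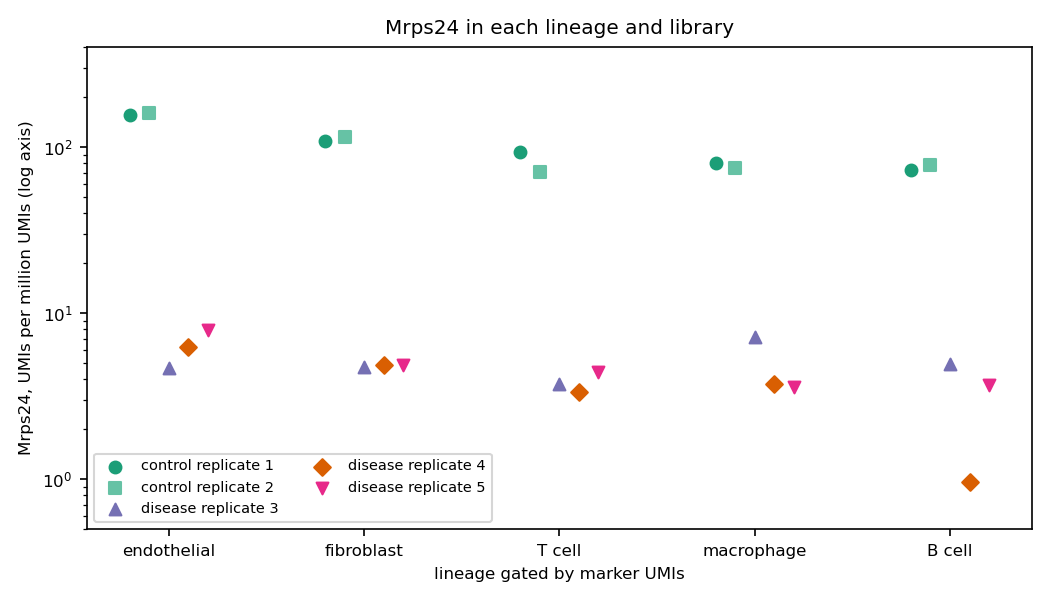
Mrps24 in CPM by plain library totals of each lineage (log axis) for the 5 libraries and the 5 lineages that had at least 50 cells in every library. The control libraries lie between 70.5 and 161 and the disease libraries between 0.960 and 7.90 in all 5 lineages.

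Lineages too small for a fit were summed over the libraries of a group. Mural cells held 61 Mrps24 UMIs in control and 3 in disease libraries, dendritic cells 23 and 4, Schwann cells 23 and 1, NK cells 19 and 1, and cardiomyocytes 22 and 1. By plain library totals these were 158, 95.4, 126, 131 and 205 CPM in control cells, against 8.66, 6.31, 5.55, 3.82 and 13.2 CPM in disease cells. Neutrophils held 10 UMIs (57.0 CPM) in control libraries and none in disease ones (0 UMIs, which allows up to 13.7 CPM, at 3 counts over the group). The direction was the same in these 6 lineages, with counting error large in each.

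Members called lower numbered 11 of 78 tested in endothelial cells (11.7% of all genes were called lower), 12 of 78 in fibroblasts (12.4%), 11 of 78 in macrophages (6.66%), 8 of 77 in T cells (5.39%) and 6 of 57 in B cells (8.99%). In endothelial cells, fibroblasts and B cells these shares, 14.1, 15.4 and 10.5%, were near those of all genes. Every member called lower in a lineage was among the 12 called over all cells. Mrps24, Mrpl54, Mrps15 and Mrps30 were called in all 6 fits (4 members). Mrpl57 and Mrps35 were called in all 5 fits that tested them. Members called higher numbered 2 in fibroblasts, Mrpl18 and Mrpl24 (0.356% of all genes), and 0 in endothelial cells (0.316%), macrophages (0.0812%), T cells (0.0102%) and B cells (0.368%). In those 4 lineages 17, 22, 14 and 11 members had an unadjusted p under 0.05 in either direction. The counts of lower members rest on single libraries: macrophages had 5, 7 and 6 without control replicate 1, control replicate 2 or disease replicate 5, where 2.26, 2.2 and 2.05% of all genes were called lower. T cells had 2, 4 and 0 without control replicate 1, disease replicate 4 or disease replicate 5, where 2.23, 1.66 and 0% of all genes were, so the 0 there is that of every gene. B cells had 1, 0, 10 and 3 without control replicates 1 or 2 or disease replicates 3 or 5, against 3.24, 0.916, 8.07 and 3.62% of all genes.

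The log2 fold change of Mrpl54 was -3.68 (SE 0.217) in endothelial cells, -3.83 (SE 0.432) in fibroblasts, -3.94 (SE 0.213) in macrophages, -4.15 (SE 0.491) in T cells and -4.58 (SE 0.574) in B cells. Mrps34 was not called in T cells or B cells. It stood at 55.7 and 52.7 CPM in control endothelial cells, against 16.9, 5.75 and 15.0 CPM in disease ones, and in T cells at 51.1 and 56.9 CPM against 41.9, 23.9 and 24.2 CPM. In B cells it was at 29.2 and 42.6 CPM against 53.5, 28.0 and 21.7 CPM, where the groups overlapped.

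The low level of disease replicate 4 was repeated in each lineage. Members lower there by over 2 times than in any other library, whether or not they were called lower in disease, numbered 16 of 78 in its endothelial cells (4.43% of all genes), 15 in fibroblasts (4%), 14 in macrophages (3.66%), 9 of 77 in T cells (3.89%) and 9 of 57 in B cells (5.59%). In T cells control replicate 2, with 88 cells, also had 9 such members, where 13.9% of all genes were that low. Mrpl52 in disease replicate 4 was at 13.7 CPM in endothelial cells, 19.6 in fibroblasts, 12.1 in macrophages, 14.3 in T cells and 12 in B cells. In the other 4 libraries it was between 101 and 274 CPM in these lineages. Mrpl52 was thus low inside each lineage as in the sum, in a library with a high share of T cells.

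**Figure D3:**
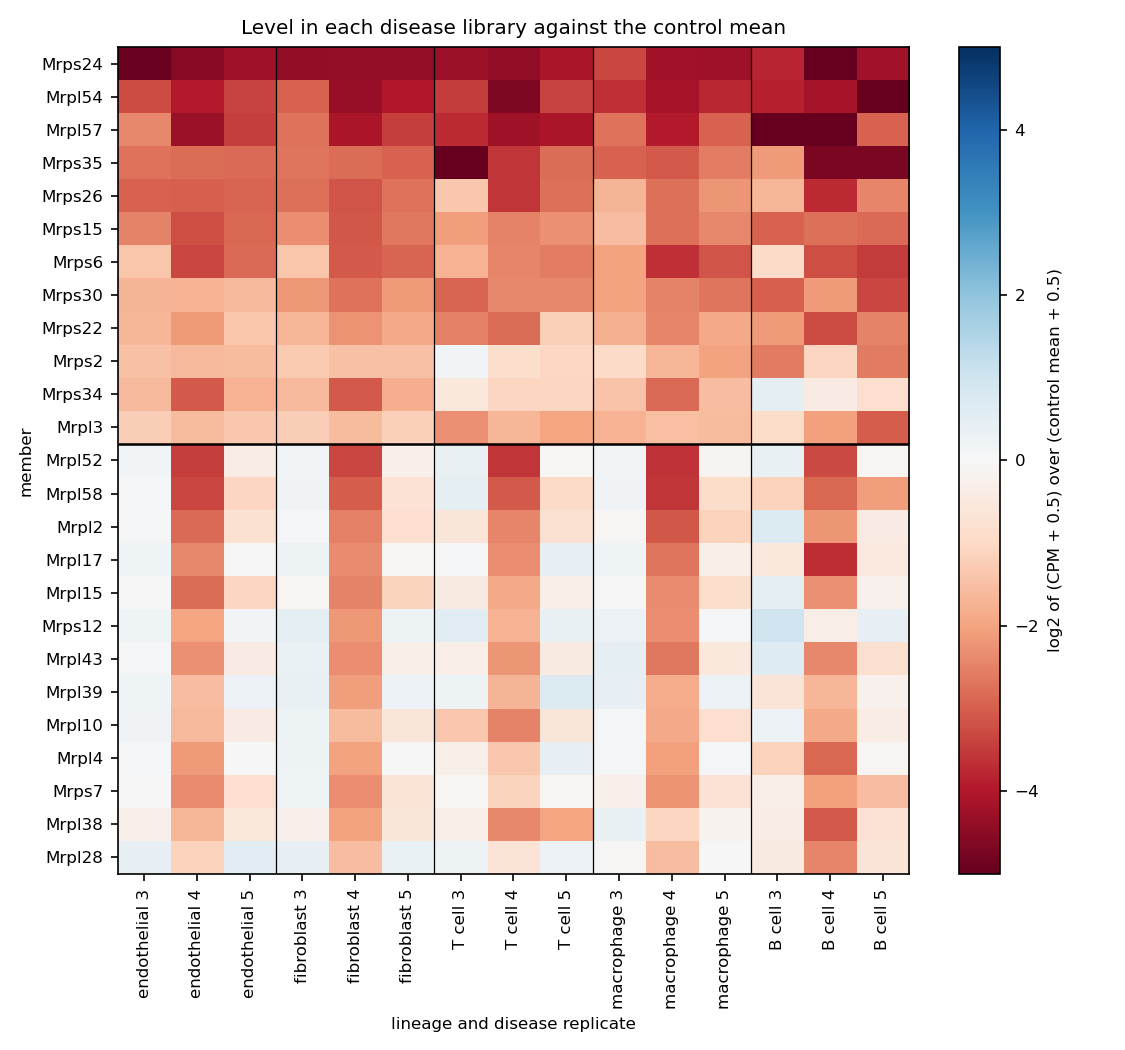
Log2 ratio of each disease library's CPM plus 0.5 to the control mean plus 0.5, for the 12 members called lower (above the line) and the 13 low in disease replicate 4 (below it), in 5 lineages with disease replicates 3, 4 and 5 as columns. The upper block is low in nearly all columns, except Mrps2 and Mrps34 in some T cell and B cell columns, and the lower block is low mainly in the column of replicate 4 in each lineage.

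Whether a member's disease minus control difference varied between lineages was tested in 1 fit of macrophages, T cells, fibroblasts and endothelial cells, with the library as a block and a lineage by group term. No member passed in any of the 6 pairs of lineages (0 of 78, edgeR, adjusted over all genes), and 1 to 13 members a pair had an unadjusted p under 0.05. This does not show that the changes were alike. Of all genes, 0.0287% passed for macrophages against T cells, 0.0645% against fibroblasts and 0.0574% against endothelial cells. For T cells the shares were 0.086% against fibroblasts and 0.0574% against endothelial cells, and 0.00717% passed for fibroblasts against endothelial cells. Mrps34 came nearest, with a fall smaller in T cells than in fibroblasts by 1.71 on the log2 scale (SE 0.352, edgeR adjusted p = 0.0902) and smaller than in endothelial cells by 1.63 (SE 0.356, adjusted p = 0.156). It passed in DESeq2 for both pairs (adjusted p = 0.0380 and 0.0464), and in edgeR without the filter on low counts for these and the macrophage pair. For Mrps24 the change differed by 0.12 to 0.78 between lineages, with adjusted p-values of 0.794 to 1.00.

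Lineages themselves differed for many members, a comparison made inside the libraries and so independent of how the family was chosen. T cells against endothelial cells had 22 members higher and 31 lower of 78, where 29 and 42.2% of all genes were higher and lower. For T cells against fibroblasts the counts were 17 and 27 (30.3 and 45.3% of genes), and for macrophages against T cells 18 and 23 (34.6 and 29%). Macrophages had 6 members higher and 27 lower than fibroblasts (30.1 and 41.1%), and 8 higher and 33 lower than endothelial cells (30.4 and 39.8%). Fibroblasts had 16 higher and 14 lower than endothelial cells (34.7 and 30.8%). Each share of the 78 was near or below that of all genes. Without disease replicate 5, 18 members in place of 30 differed between fibroblasts and endothelial cells. The share of all genes in that fit is not given here, so this fall is not a result about the members.

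Mrpl27, a large subunit protein with a bacterial counterpart near the peptidyl transferase centre, was lowest in T cells. Its mean over the 5 libraries was 94.2 ± 9.38 CPM (SD, n = 5) in endothelial cells, 76.1 ± 11 in fibroblasts, 48.9 ± 12.9 in macrophages and 15.3 ± 8.0 in T cells. T cells were below endothelial cells in 5 of 5 libraries, with a log2 difference of -2.43 (SE 0.157, edgeR adjusted p = 4.2e-12). Mrpl53 followed the same order of endothelial over T cells at a low level, 8.40 ± 1.90 and 2.15 ± 1.75 CPM (SD, n = 5), a log2 difference of -2.54 (SE 0.347, edgeR adjusted p = 9.1e-07). Mrpl17 was at 122 ± 55.8 CPM in endothelial and 24.4 ± 15.8 CPM in T cells (SD, n = 5), a log2 difference of -2.14 (SE 0.147, edgeR adjusted p = 1.17e-11), and disease replicate 4 was lowest in both.

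Mrps6 ran the other way. It was higher in T cells than in endothelial cells by 2.01 on the log2 scale (SE 0.206, edgeR adjusted p = 1.18e-08) and higher in macrophages than in endothelial cells by 1.59 (SE 0.194, edgeR adjusted p = 1.7e-07), in 5 of 5 libraries each. In endothelial cells its CPM were 43.7 and 61.5 in control libraries, against 20.5, 4.78 and 6.99 in disease ones, and in T cells 211 and 109 against 54.1, 35.6 and 30.4. T cells were thus above endothelial cells at both the control and the lower disease level. Mrps34 was higher in T cells than in fibroblasts by 1.38 (SE 0.260, edgeR adjusted p = 5.6e-05) and lower in macrophages than in T cells by 1.95 (SE 0.285, edgeR adjusted p = 3.0e-06). Both differences average over control and disease libraries. In the single fits fibroblasts were at 43.5 and 41.5 CPM in control, against 13.1, 4.47 and 11.3 in disease libraries. Macrophages were at 24.8 and 20.5 CPM against 8.07, 3.21 and 8.09. As ratios, the T cell values given above lay closer to these in control than in disease libraries.

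Fibroblasts and endothelial cells differed most in Mrpl44, Mrpl46 and Mrps28. Mrpl44, which carries a domain like that of RNase III, was at 9.07 ± 3.03 CPM in fibroblasts and 23.7 ± 4.29 in endothelial cells (SD, n = 5), a log2 difference of -1.40 (SE 0.159, edgeR adjusted p = 6.5e-08). Mrpl46 was at 10.4 ± 1.17 and 23.3 ± 2.12 CPM (SD, n = 5), a difference of -1.17 (SE 0.134, edgeR adjusted p = 6.5e-08). Mrps28 was at 94.4 ± 24.7 CPM in fibroblasts and 43.3 ± 10.9 in endothelial cells (SD, n = 5), a difference of 1.12 (SE 0.107, edgeR adjusted p = 4.0e-09). Each difference had the same sign in 5 of 5 libraries. Mrps7 was lower in macrophages than in T cells by 1.12 (SE 0.200, edgeR adjusted p = 4.0e-05), in 4 of 5 libraries: in control replicate 2 it was at 25.9 CPM in macrophages and 24.2 in T cells. Mrpl3 was higher in macrophages by 1.30 (SE 0.163, edgeR adjusted p = 3.5e-07).

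Mrps24 was lower in T cells than in endothelial cells by 0.58 (SE 0.185, edgeR adjusted p = 0.00807) and lower in macrophages than in endothelial cells by 0.55 (SE 0.166, edgeR adjusted p = 0.00557). In the controls endothelial cells were at 137 and 140 CPM, macrophages at 88.3 and 67.2 and T cells at 96.3 and 65.4. In disease replicate 3 macrophages lay above endothelial cells (7.53 and 4.18 CPM), and T cells were at 4.16. Levels of Mrps24 in fibroblasts, macrophages and T cells did not pass the test against each other (adjusted p = 0.198 to 0.915).

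**Figure D4:**
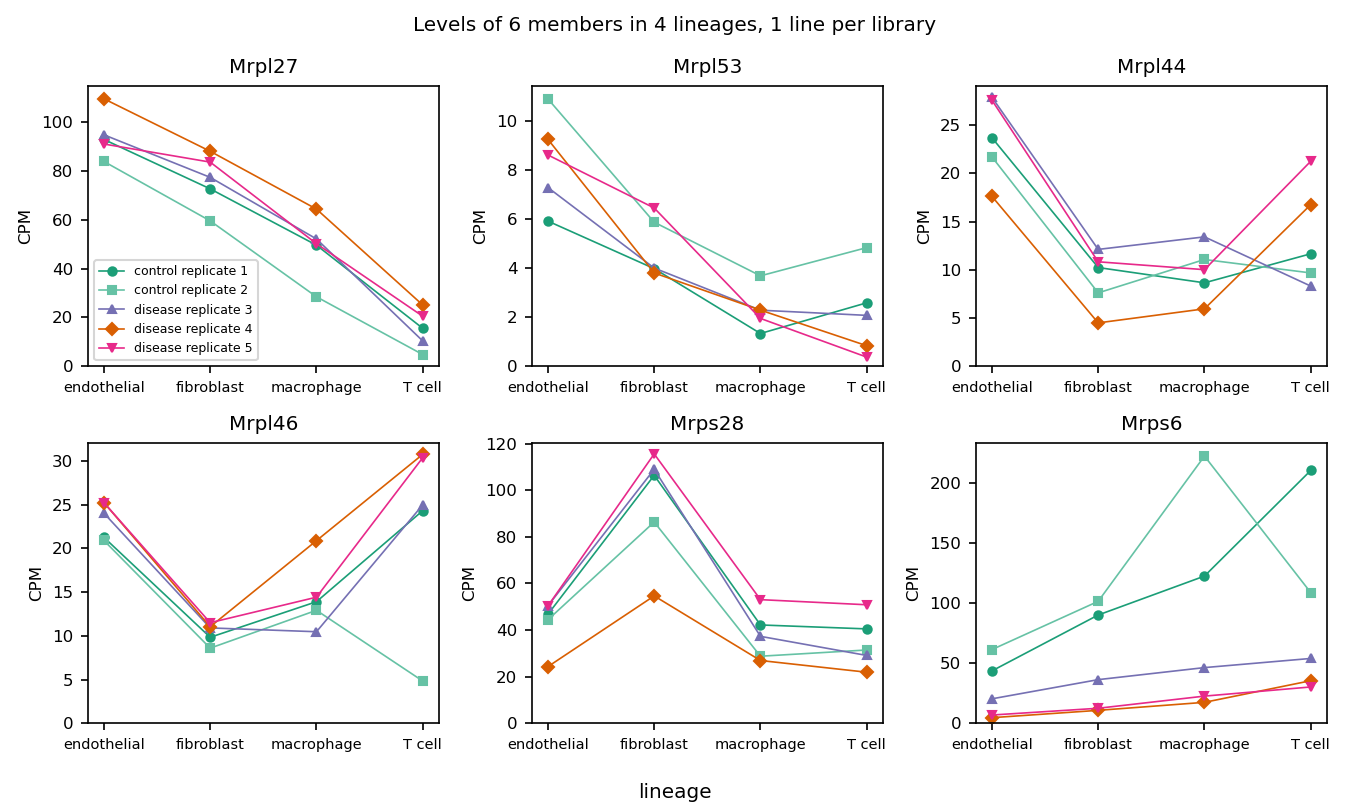
CPM of 6 members in endothelial cells, fibroblasts, macrophages and T cells, 1 line per library. Mrpl27 and Mrpl53 are highest in endothelial cells, Mrpl44 is lower in fibroblasts than in endothelial cells in every library, as is Mrpl46, Mrps28 is highest in fibroblasts, and Mrps6 is lowest in endothelial cells in each library, at lower levels in disease.

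The level of the changed members was set beside the base composition of their transcripts, since 5-prime libraries are made to read that end. The first 300 bases had a median GC content of 66.5% (61.0 to 70.0%) in the 12 members called lower. It was 62.7% (51.7 to 72.7%) in the 13 low in disease replicate 4 and 57.7% (47.3 to 67.3%) in the other 53. Over all genes tested it was 59.7%, and the ranges of the sets overlapped. All genes called lower (1037) had a median of 68.7%. Across the 78 members Spearman's rho of the log2 fold change with this GC content was -0.631, and it was -0.435 across 15970 genes. Over whole transcripts rho was -0.268 and -0.147, and with transcript length -0.0776 and -0.0771. These correlations run across genes of the same libraries, which are not independent replicates. The part of GC content in the result was not tested. The labels do not say which libraries were prepared together, so preparation and genotype cannot be told apart.

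**Figure D5:**
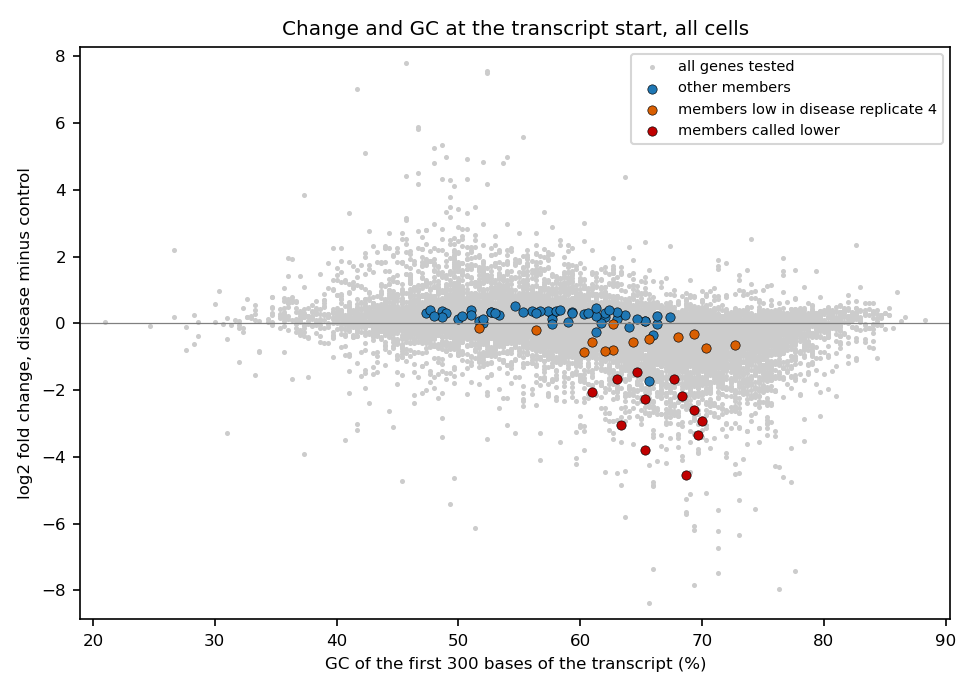
Log2 fold change, disease minus control, over all cells against the GC content of the first 300 transcript bases, for all genes tested (grey) and for the members in 3 sets. The 12 members called lower lie between 61.0 and 70.0% GC, among the grey genes that extend downward at the right. Members not called lower span 47.3 to 72.7% and so overlap that range.

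Some members share exons with neighbours. On the same strand, 3 of the 12 members called lower overlap another gene: Mrps24 (chr11:5703983-5715680, minus strand, GRCm38) overlaps Urgcp, with the RefSeq start used above inside this longer model, Mrps6 (chr16:92058270-92112227) overlaps Slc5a3 and Gm49711, and Mrps34 (chr17:24895116-24897502) overlaps Nme3. Of the 13 low in disease replicate 4 none (0) does so, and of the other 53 members 1 does. Reads from shared exons cannot be assigned with certainty. On the opposite strand, 4 of the 12, 3 of the 13 and 19 of the other 53 overlap a gene. The part of shared exons in the result was not tested.

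Other genes of mitochondrial translation, from lists of known roles, were not all alike. The counts called over all cells stand beside 6.47% of all genes called lower. Of 5 subunits with other symbols that were tested, 1 was called lower, Gadd45gip1, at 41.2 and 40.0 CPM in control cells, against 8.28, 6.05 and 9.06 CPM in disease cells (log2 fold change -2.38, SE 0.208), and the median was -0.05. Of 23 assembly factors, 4 were called lower, Malsu1, Rbfa, Gtpbp6 and Noa1, with a median of -0.03. Malsu1, which keeps the immature large subunit from joining too early, was at 33.1 and 33.3 CPM and at 4.50, 2.25 and 2.89 CPM (log2 fold change -3.37, SE 0.314). Rbfa, an assembly factor of the small subunit, was at 43.7 and 40.8 CPM and at 7.93, 9.01 and 7.97 CPM (log2 fold change -2.35, SE 0.139). Over all cells, none of 14 translation factors (median -0.20) and none of 13 mitochondrial mRNAs (median 0.20) passed in either direction. In T cells the elongation factor gene Tsfm was called lower (log2 fold change -2.68, SE 0.517). Of 79 cytosolic ribosomal proteins tested, 1 was called lower, Rps2, at 2495 and 2156 CPM against 352, 249 and 326 CPM (log2 fold change -2.91, SE 0.219). Rps2 is known to have processed copies, so its count is uncertain. Over all cells the median of that list was 0.40, and 64 of its genes were above both controls in every disease library, as were 16.4% of all genes. In endothelial cells, fibroblasts, macrophages and B cells the median was 0.20, 0.34, 0.37 and 0.33, against -0.01 to 0.05 over all genes. In T cells the median was 0.07, against 0.02 over all genes. Within lineages Rpl13 was also called lower in endothelial cells, fibroblasts and B cells, and Rpl39 was called higher in fibroblasts and B cells. Rpl6, Rps15a, Rps24 and Rpl30 were called higher in B cells, which makes 5 of 77 there (0.368% of all genes).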

How the data were processed

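Values are raw UMI counts for each gene in each barcode, as deposited, and per the file headers the authors ran Cell Ranger 3.1.0. The submitters' processing notes also name Cell Ranger 3, Seurat 3, mm10 and GRCh38, without their roles. The rule for calling cells is not given in the sources used here. Kept cells had 500 UMIs and 200 genes or more, and up to 10% of UMIs from mitochondrial genes. Doublets were scored with Scrublet (scanpy 1.11.5), and in each library the top share expected at 0.8% per 1000 cells was removed (2474 cells, 6.46%). Scrublet's automatic threshold marked 0.0716% of control replicate 2 and was kept as an alternative chosen after seeing the data. Free RNA was not estimated, since no barcode had under 500 UMIs.

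Cells were gated to 1 of 11 lineages by the number of 10 markers detected (at least 3, and 2 more than any other lineage). The 5 lineages with at least 50 cells in every library were fitted. Sums of UMIs in each library went into edgeR 4.0.16 (R 4.3.3, TMM, filterByExpr, quasi-likelihood), with adjustment over all genes and 0.05 as the threshold. Each SE is the size of a fold change on the log2 scale divided by the square root of its F. CPM use TMM library sizes unless plain library totals are named. Fits between lineages used 20 sums of 4 lineages with the library as a block, scaled together, so CPM there can differ from the single fits (31.4 against 23.9 for Mrps34 in T cells of disease replicate 4). The fits were tested on simulated data. Members, lists, gates and named genes were chosen with earlier results of these data known. Full values are given for Mrps24, called members, the 4 highest, the 4 most abundant and the 2 largest differences each way per pair of lineages. The set low in disease replicate 4, and members quoted to illustrate lineages, were chosen after their values were seen. Because nothing ties libraries to separate mice, p-values measure only the spread between these libraries. GC content and overlaps come from GENCODE M21 (GRCm38, 1 principal transcript a gene), promoters from RefSeq (GRCm38.p6).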

Additional observations from a re-analysis of the deposited data

How the results depend on the processing

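No paired analysis was possible because the control and disease libraries share no replicate numbers. Settings compared were DESeq2, no filter on low counts, plain library totals, a mitochondrial limit of 25%, doublets kept or called automatically, a marker lead of 1, and leaving out each library. The log2 fold changes of the called, highest and most abundant members kept their direction under the settings run over all cells. Signs of other members did change: members below 0 numbered 26 to 36 with 1 library left out (main 31). With 1 library left out, members called lower over all cells numbered 4 to 13 in place of 12, with 6 and 7 without control replicates 1 and 2 and 4 without disease replicate 5. Counts ranged from 5 to 13 in macrophages (main 11), from 0 to 9 in T cells (main 8) and from 0 to 10 in B cells (main 6). In macrophages the lowest counts came without control replicate 1 (5), disease replicate 5 (6) and control replicate 2 (7). T cells fell to 0 without disease replicate 5, 2 without control replicate 1 and 4 without disease replicate 4, and B cells to 0 and 1 without control replicates 2 and 1 and to 3 without disease replicate 5. The share of all genes called lower fell in the same fits, to 0.782 to 2.03% over all cells (main 6.47), 2.05 to 2.26% in macrophages (6.66), 0 to 2.23% in T cells (5.39) and 0.916 to 3.62% in B cells (8.99). Where 1 control library remains, it is assumed to vary as the disease libraries do. B cells gave 3 in DESeq2 (7.39% of all genes) and 11 without the filter (6.11%), against 6 in the main fit (8.99%). Without the filter 13940 genes were tested in B cells in place of 5170. T cells gave 12 without the filter (6.29% of all genes) in place of 8 (5.39%). DESeq2 called 1 member higher over all cells. Members differing between fibroblasts and endothelial cells numbered 30, and 18 to 28 with 1 library left out (18 without disease replicate 5). The shares of all genes in those fits are not given here, so these counts are not a result about the members. No member's change differed between lineages (0 over 6 pairs), while 1 member, Mrps34, passed in 3 pairs without the filter and in 2 in DESeq2. Calls of single members were followed over all cells only, where 21 were lost and 1 was gained. Calls lost within lineages enter only as counts, such as the 0 in T cells without disease replicate 5. Of all alternative values, 303 kept their call or, for counts, about their size, and 19 counts moved further. The cause was not tested.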
